A study of Mus with 4 samples.

Results

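Circular RNAs (circRNAs) of ocular tissue were compared, in mice that lack VLDLR (very-low-density lipoprotein receptor), between postnatal day 13 (P13) and P12. The comparison takes 2 of the 4 libraries of the study and every circRNA with 20 or more back-spliced junction reads over both, which kept 5206 of the 44073 circRNAs listed in the series. All mice were C57BL/6J, and both deletion groups, like both wild-type groups, had breathed 75% oxygen from P7 to P12. Tissue was taken at the end of the oxygen (P12) or after 1 day back in room air (P13), so that age and the return to air cannot be told apart. Each group holds 1 library. The labels give neither the number of animals in a library, nor their sex, nor how the deletion was made.

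A circRNA is a closed ring made when a splice donor joins an acceptor that lies upstream of it in the gene, and sequencing reads that span this back-splice are counted as its level. Circles are spared from enzymes that digest RNA from its ends and build up in slowly dividing cells such as neurons. High oxygen stops vessel growth in the retina of the mouse pup, and the return to room air leaves the poorly supplied retina short of oxygen, which is the stimulus for new vessels in this model of retinopathy. VLDLR takes up lipoprotein particles and also binds Reelin, and mice without it grow abnormal vessels beneath the photoreceptors.

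The deletion libraries held 299723 junction reads at P12 and 341873 at P13, and the wild-type libraries 662811 and 759063. In the deletion 12714 circRNAs were listed on both days, 5308 at P12 alone and 7415 at P13 alone, the last 2 sets with a median of 3 reads each. The 5206 compared circRNAs came from 2375 host genes and took 81.1% of the reads at P12 and 80.4% at P13. Eye cell types were represented by circRNAs of their marker genes: 8 of 11 markers of rods and cones (2648 reads at P12, 2890 at P13), 4 of 6 of bipolar cells (269 and 220), 3 of 5 of lens (680 and 590) and 3 of 5 of extraocular muscle (654 and 882). No read came from the 4 markers of microglia and leukocytes or the 3 of cornea in these libraries, and Nrl and Cnga1, which mark rods, gave none either. A circRNA level follows the circles of a gene and not its messenger RNA, so such zeros do not show that a cell type is missing. Fewer cells of a type and fewer circles per cell cannot be told apart in these bulk samples.

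The 2 deletion libraries also differed in their sex-linked circRNAs. Chromosome Y gave 252 and 342 wild-type reads on P12 and P13, and 80 and 0 with VLDLR deleted; the P12 count scaled to the depth of deletion P13 is 91.3 reads. Most came from Uty, a Y-linked histone demethylase paralogue, with 219, 300, 71 and 0 reads in the same order. Counted against 3 reads, Y-linked circRNAs were at least 30.4-fold lower in deletion P13. Chromosome X went the other way: its reads summed to 4527 at P12 and 5912 at P13, a ratio of 1.14 after scaling (95% interval 1.10 to 1.19), against 1.01 (0.987 to 1.04) in wild type. The median log2 ratio of the 124 compared X-linked circRNAs was 0.14, and the medians of the 19 autosomes lay between -0.10 and 0.07. Sex is not in the labels, and day and the Y content of the library cannot be told apart in the deletion. Xist, the non-coding RNA expressed from the inactive X chromosome, gave 5 and 6 reads in the wild-type libraries, 3 in deletion P12 and 0 in deletion P13. Without the circles of X and Y the calls described next were 195 higher and 218 lower.

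**Figure D1:**
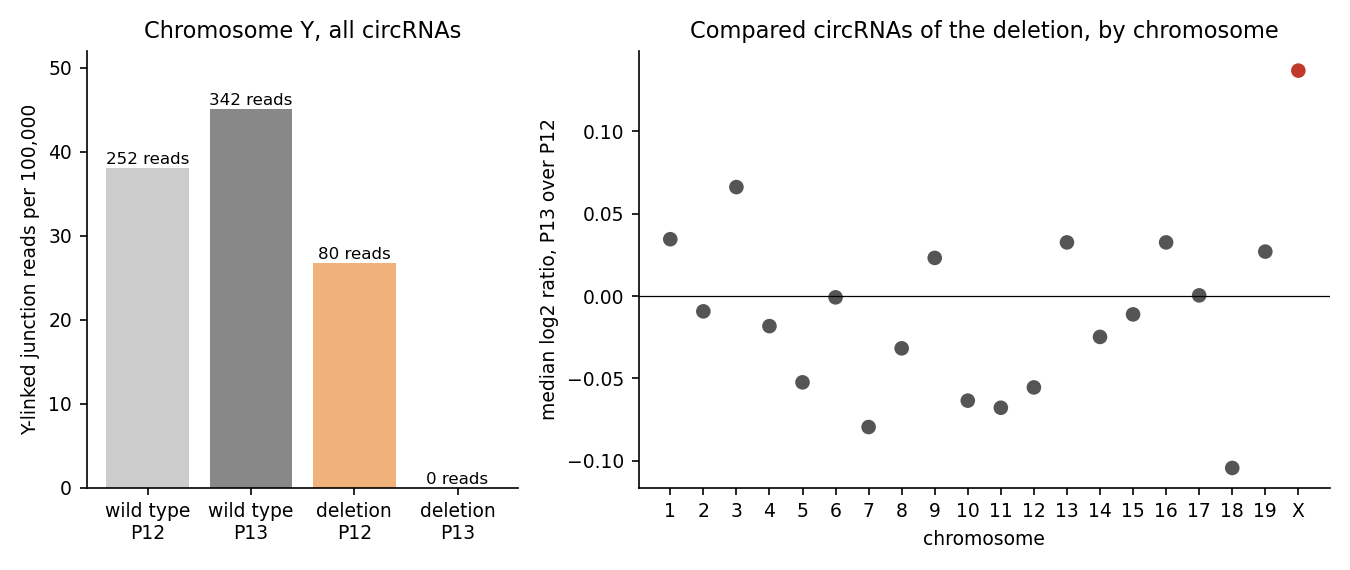
Left, junction reads of all circRNAs on chromosome Y per 100,000 junction reads of the library, with the read number above each bar, for the 4 libraries. Right, median log2 ratio of scaled reads (deletion P13 over P12) of the compared circRNAs of each chromosome; X, in red, stands at 0.14 above the autosomes (-0.10 to 0.07), and deletion P13 has no Y-linked read.

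Reads were scaled by the total junction reads of the library, and the ratio of P13 to P12 is given with an exact 95% interval for counting error. The call of a higher circRNA needed a ratio of 2 or more, that of a lower one 0.5 or less, and both an interval without 1. With 1 library a day this compares 2 libraries and has no replicate check, and no p-value is given. Of the 5206 circRNAs, 203 were called higher at P13 (3.9%) and 223 lower (4.28%), or 8.18% in all. The split depended on the scaling, since DESeq2 size factors gave 257 higher and 161 lower. The bulk of circRNAs stayed close together on the 2 days, with a median log2 ratio of -0.01 and the central 90% of ratios between 0.472 and 2.14. The same rule in wild type called 420 higher (4.29%) and 465 lower (4.75%) of 9794.

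Calls sat among the less abundant circles. Of the 1061 circRNAs with 100 or more reads, 4 were called higher (0.377%) and 5 lower (0.471%). The 4 came from Emc2, Sltm, Rims2 and Ttc7b, and the 5 from Ano2, Pik3c2a, Rasgrf2, Rpgrip1 and Trappc9. At the edge of the read minimum, 11 of the 216 circRNAs with exactly 20 reads were called higher and 7 lower, while of the 265 with exactly 19 reads, which were left out, 23 and 17 would have passed. Among the calls listed on both days the median fold was 2.78 for the 177 higher and 2.73 for the 214 lower.

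**Figure D2:**
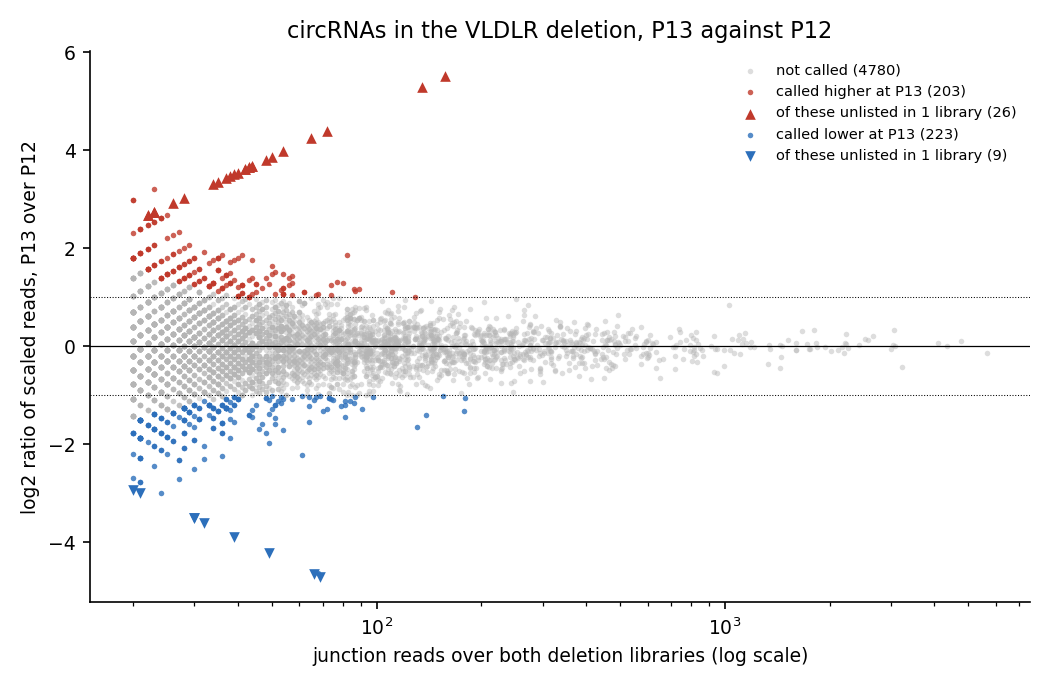
Each point is 1 of the 5206 compared circRNAs of the deletion: junction reads over both libraries (log scale) against the log2 ratio of scaled reads, P13 over P12. The 203 called higher are red and the 223 called lower blue, triangles mark those unlisted in 1 library (set to 3 reads there), dotted lines mark a 2-fold ratio, and the points close in on 0 with rising reads.

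The most abundant circles differed little between the days. The 10 with most reads had ratios between 0.744 and 1.25, and none was called. The circRNA of Gigyf2, a translational repressor, had 2142 reads at P12 and 2619 at P13 (ratio 1.07, 1.01 to 1.14), and 4686 and 5253 in the deeper wild-type libraries (0.979, 0.941 to 1.02). The circle of Arhgap10, a GTPase-activating protein (chromosome 8, 77344640 to 77365160), went from 1261 to 1801 reads (1.25, 1.16 to 1.35) and in wild type from 1909 to 2594 (1.19, 1.12 to 1.26). The circle with a genomic span of 416 bases in Bbs9, a subunit of the BBSome that carries cargo in cilia, went from 1743 to 1480 (0.744, 0.694 to 0.798) and in wild type from 1271 to 1198 (0.823, 0.760 to 0.891). Arhgap10 was thus above 1 and this Bbs9 circle below 1 in both genotypes.

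Among circles called higher and listed on both days, the interval stood farthest from 1 for Zfp800, Pdzd2, Ptprg, Snx5, an intergenic circle on chromosome 9, Zc3h11a, Pms1, Vps35l, Ipo8, an intergenic circle on chromosome 8, Kdm5c and Hipk3. The exonic circle of Pdzd2, which encodes a scaffold with PDZ domains (chromosome 15, 12437104 to 12445665), rested on the most reads of these. It had 42 and 66 reads in wild type, in the order P12 and P13 used from here on, against 16 and 66 with VLDLR deleted (3.62-fold higher, 2.07 to 6.69). Counted per library total, deletion P12 lay closest to wild type P12 and deletion P13 stood above the other 3. Zfp800, a zinc finger gene (chromosome 6, 28242977 to 28247284), had 21 and 26 reads in wild type, against 2 and 21 with VLDLR deleted (9.21-fold, 2.25 to 81.0). Per library total, deletion P12 was the lowest and deletion P13 the highest of the 4.

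Snx5 encodes a sorting nexin of endosomes (chromosome 2, 144254726 to 144259178), and its circle had 82 and 94 reads in wild type against 2 and 18 in the deletion (7.89-fold, 1.89 to 70.1). Both deletion libraries were thus below wild type, deletion P12 the more so. Vps35l, a subunit of an endosomal recycling complex, had 7 and 3 reads in wild type, against 3 and 21 with VLDLR deleted (6.14-fold, 1.83 to 32.1). Ipo8, a nuclear import receptor, had 15 and 29 reads in wild type, against 3 and 20 with VLDLR deleted (5.85-fold, 1.73 to 30.7). Zc3h11a, an mRNA export factor, and Pms1, a DNA mismatch repair gene, both went from 3 to 21 reads. For the last 5 genes the P12 count of 2 or 3 reads sets the wide interval.

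Kdm5c, an X-linked histone demethylase with a Y-linked paralogue, had 24 and 23 reads in wild type, against 4 and 23 with VLDLR deleted for its called circle (chromosome X, 152244873 to 152246413; 5.04-fold, 1.72 to 20.1). Over all its circles the host went from 138 to 217 reads (1.38, 1.11 to 1.72), beside the X-linked shift given above. Hipk3, a kinase gene best known for an abundant single-exon circle, gave a rarer member of this set. The abundant circle (chromosome 2, 104470749 to 104471847) had 1113 and 1409 reads in the deletion (1.11, 1.03 to 1.2). The called circle of the same gene (104433168 to 104435057) had 34 and 36 reads in wild type, against 8 and 33 with VLDLR deleted (3.62-fold, 1.64 to 9.06).

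On the lower side the largest difference among circles listed on both days belonged to Pcsk6, which encodes a proprotein convertase that cleaves secreted precursors. Its circle spans 73648 bases of the genome (chromosome 7, 65910202 to 65983849). It had 2 and 0 reads in wild type, 65 in deletion P12 and 3 in deletion P13 (24.7-fold lower, 8.09 to 123). Deletion P12 was the single high library, and 61 of its 65 reads remained when reads lying close together on the flow cell were counted once. The other Pcsk6 circles at the same splice positions had 27 and 24 reads in the deletion (ratio 0.779, 0.430 to 1.4).

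The same set held intronic circles of Pakap, a gene joining a paralemmin with an A-kinase anchor protein, and of Rasgrf2, an exchange factor for Ras. The intronic Pakap circle (chromosome 4, 57709451 to 57757683) had 52 and 62 reads in wild type, against 49 and 12 with VLDLR deleted (4.66-fold lower, 2.44 to 9.62). The intronic Rasgrf2 circle (chromosome 13, 91968947 to 91972288) had 34 and 33 reads in wild type, against 96 and 35 with VLDLR deleted (3.13-fold lower, 2.10 to 4.75). Scaled to library depth, deletion P12 was above both wild-type libraries for both circles. Deletion P13 was below wild type for Pakap and above it for Rasgrf2.

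The remaining circles of this set came from Bbs9, Med13, Msi2, Atp8a1, Setdb1, Ntrk3, Ptpra, Dscaml1 and Zfp984, with folds between 3.94 (Dscaml1) and 7.98 (Bbs9). A Bbs9 circle spanning 75549 bases of the genome had 193 and 160 reads in wild type, against 21 and 3 with VLDLR deleted (7.98-fold lower, 2.38 to 41.8), so that both deletion libraries were below wild type. Msi2, a Musashi RNA-binding protein of progenitor cells, had 13 and 12 reads in wild type, against 25 and 5 with VLDLR deleted (5.70-fold lower, 2.14 to 19.1). Setdb1, a histone H3 lysine methyltransferase, had 24 and 40 reads in wild type, against 18 and 3 with VLDLR deleted (6.84-fold lower, 2.0 to 36.3). Dscaml1, an adhesion molecule that spaces retinal neurons, had 71 and 72 reads in wild type, against 38 and 11 with VLDLR deleted (3.94-fold lower, 1.97 to 8.55).

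Among the calls were 26 higher circles unlisted at P12 and 9 lower circles unlisted at P13. Each table lists circRNAs with at least 2 reads, and an unlisted one can hold 1 read or may have been left out by the caller, which the counts cannot tell apart; the bounds below, against 3 reads, hold only if it was absent. Emc2, a subunit of the complex that inserts proteins into the membrane of the endoplasmic reticulum, led them (chromosome 15, 43492170 to 43513849). It had 336 and 426 wild-type reads, none listed in deletion P12 and 157 in deletion P13 (at least 45.9-fold higher). Sltm, a nuclear RNA-binding protein (chromosome 9, 70559037 to 70562861), had 183 and 185 wild-type reads, none listed in deletion P12 and 135 in deletion P13 (at least 39.5-fold higher). In both cases deletion P12 alone did not list a circle that the other 3 libraries carried.

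Pak3, Sgce, Dnm3, Zfp148 and Kdm2a had the same form, with 72, 65, 54, 50 and 44 reads in deletion P13, none listed in deletion P12 and between 79 and 174 in each wild-type library. Pak3 is a neuronal kinase of the actin cytoskeleton, Sgce a sarcoglycan, Dnm3 a dynamin and Kdm2a a histone demethylase. The other Pak3 circles at the same splice positions had 209 and 244 reads in the deletion (ratio 1.02, 0.847 to 1.24), and those of Zfp148, a zinc finger transcription factor, 461 and 525 (0.998, 0.879 to 1.13). For these 2 circles the neighbours at the same splice positions were near 1, and the gap at P12 did not extend to them.

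The circles unlisted at P13 came from Tle4, Rbbp4, an intergenic locus on chromosome 1, Phkb, Setbp1, Rims2, Rere, Wwc2 and Prkca. Tle4, a Groucho corepressor (chromosome 19, 14516359 to 14544862), had 77 and 82 wild-type reads, 69 in deletion P12 and none listed in deletion P13 (at least 26.2-fold lower). Rbbp4, a histone-binding subunit of several chromatin complexes (chromosome 4, 129317648 to 129322869), had 187 and 267 wild-type reads, 66 in deletion P12 and none listed in deletion P13 (at least 25.1-fold lower). Deletion P13 stood apart from the other 3 libraries for both. Phkb, a regulatory subunit of glycogen phosphorylase kinase, had 176, 242, 39 and 0 reads (at least 14.8-fold lower), while other Phkb circles at its splice positions had 408 and 465 in the deletion (ratio 0.999, 0.873 to 1.14).

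Gaps of this kind were not spread evenly over the libraries. Of 2719 circRNAs with at least 20 reads in each of the other 3 libraries, 21 were unlisted in deletion P12, and the same count for deletion P13 was 7 of 2439, for wild type P12 2 of 2225 and for wild type P13 0 of 2215. Without the circles unlisted on 1 day the calls were 177 higher and 214 lower.

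**Figure D3:**
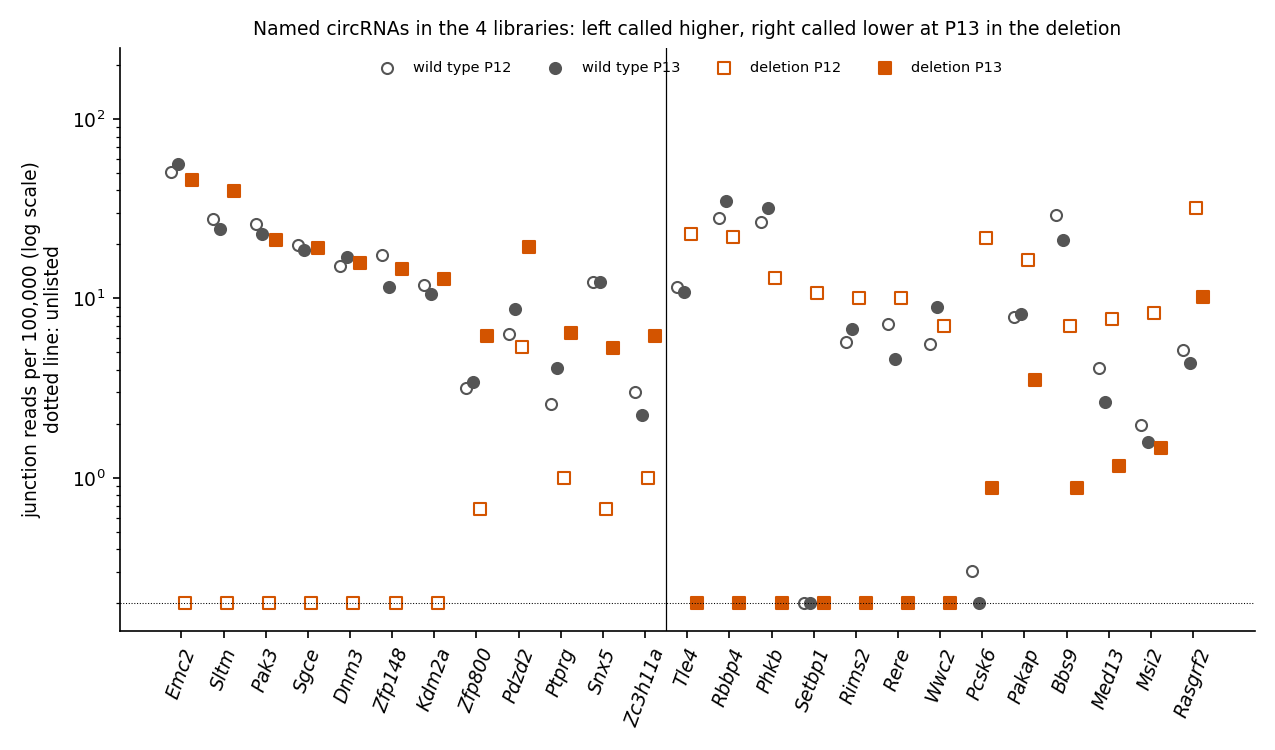
Junction reads per 100,000 junction reads of the library (log scale) for named circRNAs, 1 column each, labelled by host gene. Grey circles are wild type and orange squares the deletion, open at P12 and filled at P13, the dotted line marks a library where the circRNA is unlisted, and on the left the open orange squares of Emc2 to Kdm2a stand alone on that line while on the right the filled ones of Tle4 to Wwc2 do, except for Setbp1, which both wild-type libraries also left unlisted.

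Most calls in the deletion had no counterpart in the wild-type libraries, which share no library with the deletion pair. Of the 203 higher circles 195 had at least 20 reads in wild type, and 109 of these (55.9%) had a wild-type ratio above 1, against 49.8% of all 4974 circRNAs measured in both genotypes. Of the 196 lower circles 86 (43.9%) did. Only 11 of the 195 were called higher in wild type as well and 8 were called lower, and of the 196 only 11 were called lower and 1 higher. Over all 4974 the shares called in wild type were 2.57% higher and 2.85% lower. In the 2 sets of calls the share called the same way was 5.64% and 5.61%.

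The 11 circles called higher at P13 in both genotypes included those of Cpeb3, Ash1l, Mdm4, Fstl5, Klhl7, Agtpbp1, Kdm4c, Trpm3, Grtp1 and an intergenic locus, and were singled out after their values were seen. The Fstl5 call in the deletion was lost when a circle with both ends within 10 bases was added, which gave 7 and 17 reads (2.13, 0.839 to 6.07). The circle of Cpeb3, a translational regulator of synapses (chromosome 19, 37087538 to 37126388), was listed in neither P12 library, with 55 reads in wild type P13 and 38 in deletion P13 (at least 11.1-fold higher in the deletion). It was the only circRNA unlisted in both P12 libraries with at least 20 reads in each P13 library, and 0 circRNAs had the reverse pattern. Other Cpeb3 circles at its splice positions had 155 and 132 reads in the deletion (0.747, 0.587 to 0.948). Mdm4, a partner of p53, had 0 and 30 reads in wild type, against 7 and 21 with VLDLR deleted (2.63-fold), and Ash1l, a histone methyltransferase, 0 and 28 against 8 and 22 (2.41-fold). The circle of Agtpbp1, which trims polyglutamate from tubulin, had 17 and 53 wild-type reads, against 6 and 24 (3.51-fold).

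Circles called lower in both genotypes included those of Apc, Cdc14a, Dhx9, Eif4e3, Magi2, Nol10, Ralgps1, Syt9, Tmem50a and Zfp516. Zfp516, a zinc finger gene, had 108 and 49 reads in wild type, against 23 and 7 with VLDLR deleted (3.75-fold lower in the deletion). Syt9, a synaptotagmin of regulated secretion, had 84 and 40 against 16 and 5 (3.65-fold lower), and Ralgps1, an exchange factor for Ral, 44 and 19 against 57 and 29 (2.24-fold lower). In each of these 3, both P13 libraries were below the P12 library of the same genotype.

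The change between days was set against that of wild type as a ratio of the 2 ratios, with an exact conditional interval. Of 4974 circRNAs, 228 (4.58%) had a day ratio at least 2-fold higher in the deletion with an interval excluding 1, and 237 (4.76%) one at least 2-fold lower. These included 102 of the 195 higher calls and 92 of the 196 lower calls, and the rest did not pass this rule. The deletion reads used for the calls also enter the ratio of ratios, so this overlap is no separate evidence of a difference between genotypes. Genotype and sequencing run coincide in this study, since both deletion libraries came from 1 run and both wild-type libraries from another, and the 2 cannot be told apart. In deletion P12 the called circles lay farther from the wild-type level than in deletion P13 for 108 of 195 higher and 115 of 196 lower, against 51.9% of all.

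**Figure D4:**
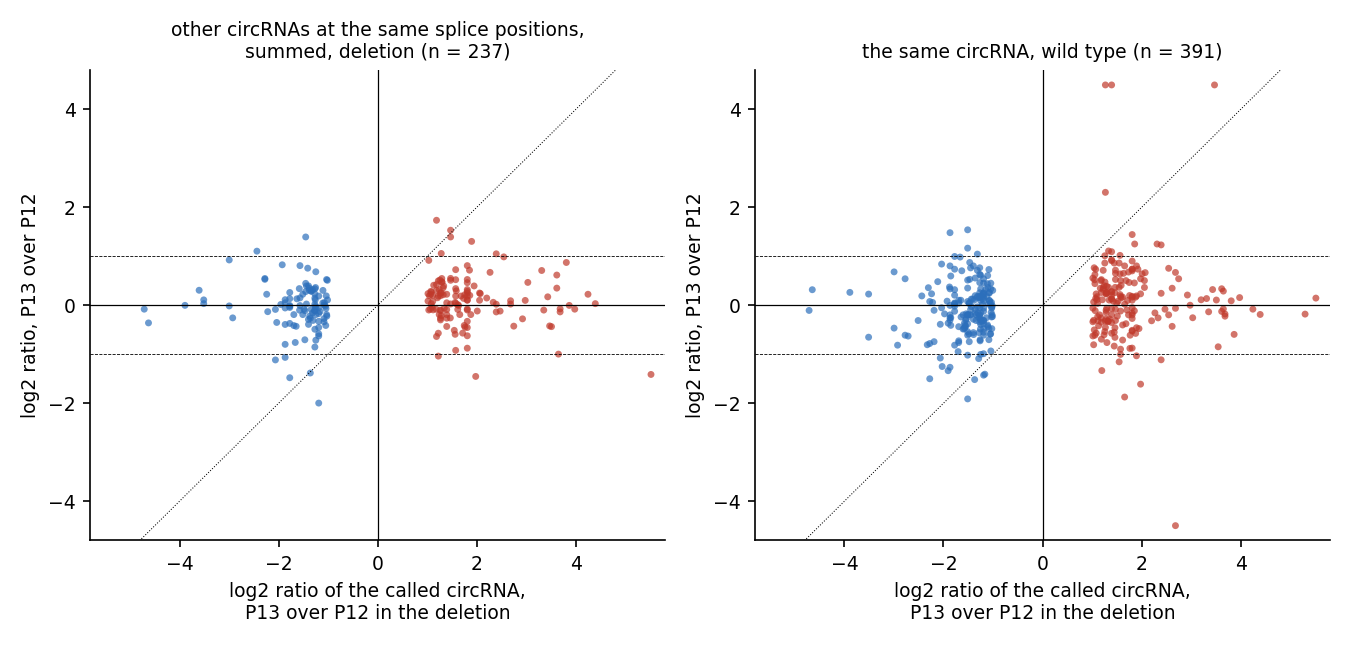
Log2 ratio of each called circRNA in the deletion (horizontal, P13 over P12; red higher, blue lower) against, left, the log2 ratio of the other circRNAs at its splice positions summed, and right, its own log2 ratio in wild type. Vertical values beyond 4.5 are drawn at 4.5, dashed lines mark 2-fold and the dotted line equality; in the left panel 122 of 131 red and 99 of 106 blue points lie within 2-fold.

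Other circles at the splice positions of a called circle mostly had ratios within 2-fold. For 131 of the higher calls the other circles using one of the same 2 splice positions had at least 20 reads together, and for 122 of these (93.1%) their summed ratio lay within 2-fold. For the lower calls this held for 99 of 106 (93.4%), and for uncalled circles for 92.5%. Of 253 hosts with a call and at least 2 compared circles, 0 had every circle called in one direction, and 21 hosts had calls in both directions. With 8.18% of all compared circles called, a host with every circle called one way would be rare in any case. This 0 therefore says little about single hosts. Reads that cross these positions without the back-splice can come from linear RNA or from the forward splices of overlapping circles, and these cannot be told apart here. Their median log2 ratio, less that of all circles, was 0.05 for higher and -0.07 for lower calls.

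In 7 cases a higher and a lower call shared a splice position. In Ppp1r12a, a myosin phosphatase subunit (chromosome 10), 2 circles began at 108240105. The one ending at 108243130 had 28 and 50 reads in wild type, against 8 and 27 with VLDLR deleted (2.96-fold higher, 1.31 to 7.54), and the one ending at 108253495 had 42 and 35 against 26 and 10 (2.97-fold lower, 1.38 to 6.89). In Bbs9, 2 circles ended at 22579593 on chromosome 9: the one from 22575111 had 8 and 32 reads in the deletion (3.51-fold higher, 1.58 to 8.81), and the long one from 22504045 had the 21 and 3 given above. Setbp1, which encodes a SET-binding protein, had 22 reads at P13 for one circle and 32 at P12 for another with the same end, each unlisted on the other day. Dennd1a, Tdrd3, Stag1 and an intergenic locus on chromosome 7 made up the rest. The 7 pairs had 46 to 84 reads each over both circles and deletion libraries.

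For 2281 circles with at least 20 reads on each day the median junction ratio, the deposited share of a splice position's reads that are back-spliced, was 0.626 at P12 and 0.624 at P13, with differences between -0.117 and 0.120 for the central 90%. Of calls with reads on both days, higher circles went from a median of 0.203 to 0.453 and lower circles from 0.527 to 0.286. The junction reads used for the call also enter this ratio.

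Summed over all circles of a host, 111 of 3007 hosts were called higher (3.69%) and 111 lower (3.69%). Sltm (3 and 140 reads), Emc2 (14 and 163; 10.2-fold, 5.91 to 19.1), Zfp804b, Mettl15, Sgce, Cyld, Top1mt and Inpp5f led the higher hosts. The circles unlisted in deletion P12 gave 0 and 135 of the Sltm reads and 0 and 157 of the Emc2 reads. Both host ratios thus rest on 1 circle each, which may have been left out by the caller at P12, and the interval does not cover this. Mettl15, a methyltransferase of mitochondrial ribosomal RNA, went from 2 to 45 reads (19.7-fold, 5.15 to 168) and in wild type from 93 to 59. Cyld, a deubiquitinase of inflammatory signalling, went from 3 to 31 (9.06-fold, 2.83 to 46.3) and in wild type from 54 to 24. For both genes the wild-type libraries ran the other way, with deletion P12 as the low library.

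Hosts called lower were led by Uty, Rbbp4, Lmnb1, Pcsk6, Pakap, Cntnap4, R3hdm2 and Srgap2. Rbbp4 went from 68 to 0 reads, and 66 of the 68 came from its circle unlisted in deletion P13. Lmnb1, a nuclear lamin, went from 25 to 4 reads (7.13-fold lower, 2.46 to 28.2) with 64 and 71 in wild type. Cntnap4, a presynaptic adhesion protein of interneurons, went from 18 to 3 (6.84-fold lower, 2.0 to 36.3) with 24 and 33 in wild type, and Srgap2, a regulator of spine growth, from 37 to 11 (3.84-fold lower, 1.92 to 8.34) with 54 and 69. Deletion P13 was the low library in these 3. Of the 372 hosts with a called circle 78 were called the same way on summed reads.

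Host genes were also read in 24 lists of eye cell types and pathways, in which 1139 compared circles had their hosts. Of these 49 were called higher and 52 lower, shares near the 3.9% and 4.28% of all circles. In the photoreceptor list 103 circles of 17 hosts were compared, with 7 called higher (6.80%) and 4 lower (3.88%) and a median log2 ratio of 0.17 against -0.01 for all. Reads of the list summed to 5638 and 6798 (ratio 1.06, 1.02 to 1.10), and in wild type to 9506 and 12408 (1.14, 1.11 to 1.17). The sum was above 1 in both genotypes and under each scaling tried in the deletion, from 1.06 to 1.12.

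Higher calls of that list included Abca4, the retinoid flippase of outer segments, with 13 and 26 reads in wild type, against 5 and 18 with VLDLR deleted (3.16-fold, 1.13 to 10.9). Samd7, a Polycomb partner in rods, had 31 and 38 against 8 and 30 (3.29-fold, 1.47 to 8.30), and X-linked Gucy2f, a guanylyl cyclase, 14 and 21 against 10 and 28 (2.45-fold, 1.16 to 5.66). For Samd7 deletion P12 was the lowest of the 4 libraries per total.

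Lower photoreceptor calls included Rpgrip1, a scaffold of the connecting cilium (chromosome 14, 52156153 to 52158454). Its circle had 51 and 39 reads in wild type, against 116 and 64 with VLDLR deleted (2.07-fold lower, 1.51 to 2.85), so that both deletion libraries were above both of wild type per total. With DESeq2 size factors this circle was no longer called. Pde6c, the cone phosphodiesterase, had 17 and 6 reads in the deletion, and Cacna2d4, a calcium channel subunit of photoreceptor synapses, 20 and 8.

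Bipolar cell hosts had summed ratios below 1 in both genotypes, and in the deletion 5 of their 12 circles had a ratio above 1 (highest log2 ratio 0.57). Of the 12, 1 was called lower and 0 higher, the median log2 ratio was -0.39, and reads summed to 393 and 327 (0.729, 0.628 to 0.847), with 692 and 709 in wild type (0.895, 0.805 to 0.995). The called circle came from Prkca, the protein kinase C that marks rod bipolar cells, with 43 and 28 reads in wild type, against 20 and 0 with VLDLR deleted (at least 7.60-fold lower). All 3 compared circles of Trpm1, the cation channel of ON bipolar cells, had ratios below 1. The most abundant had 106 and 128 reads in wild type, against 97 and 69 with VLDLR deleted (0.624, 0.451 to 0.858).

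The amacrine, horizontal and ganglion cell list held 4 compared circles, 1 called lower and 0 higher, with 1 of 4 above 1 and a median log2 ratio of -0.09. Its reads summed to 183 and 184 (0.881, 0.714 to 1.09), with 437 and 515 in wild type (1.03, 0.904 to 1.17). Its most abundant circle came from Pax6, an eye development homeobox gene, with 134 and 123 reads in wild type, against 51 and 77 with VLDLR deleted (1.32, 0.917 to 1.92). The called circle came from Prox1, a homeobox gene of horizontal and AII amacrine cells, and had 128 and 199 reads in wild type, against 55 and 29 with VLDLR deleted (2.16-fold lower, 1.36 to 3.52), with a wild-type ratio of 1.36 (1.08 to 1.71).

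Lens hosts gave a lower sum but not a lower median. Reads summed to 924 and 906 (0.860, 0.783 to 0.943), with 978 and 1221 in wild type (1.09), and with DESeq2 size factors the interval in the deletion reached 1 (0.913, 0.832 to 1.00), while the median log2 ratio of the 12 circles was 0.04. The sum rested on Bfsp1, a beaded filament protein of lens fibres (chromosome 2, 143841674 to 143849023), whose main circle had 43 and 57 reads in wild type, against 518 and 411 with VLDLR deleted (0.696, 0.610 to 0.793). Its reads were high on both days of the deletion. The single call in the list was a Tdrd7 circle with 9 and 24 reads (2.34-fold higher, 1.05 to 5.72).

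Few circles bore on vessels. Of 5 circles of the endothelial and angiogenesis list 1 was called lower and 0 had a ratio above 1, and reads of the list summed to 247 and 214 (0.760, 0.630 to 0.916), with 528 and 567 in wild type (0.938, 0.831 to 1.06). The call belonged to Efnb2, the arterial ephrin (chromosome 8, 8639206 to 8641256), with 30 and 68 reads in wild type, against 25 and 9 with VLDLR deleted (3.17-fold lower, 1.43 to 7.71). Wild type P13 was thus the highest and deletion P13 the lowest of the 4 libraries per total. Robo1, a guidance receptor, had 74 and 71 reads in the deletion (0.841, 0.599 to 1.18). The 5 defining endothelial markers gave 23 and 29 reads in the deletion, with Cdh5 at 0, and their part in the list's sum was not tested.

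Hypoxia response hosts held 33 compared circles, of which 2 were called higher (6.06%) and 0 lower, with a median log2 ratio of 0.07 and summed reads of 2391 and 2930 (1.07, 1.02 to 1.13; wild type 1.01, 0.972 to 1.05). The higher calls came from Crebbp, a histone acetyltransferase that binds hypoxia-inducible factor, and Kdm4c, a demethylase induced by low oxygen. The Crebbp circle (chromosome 16, 4179424 to 4180133) had 118 and 89 reads in wild type, against 20 and 54 with VLDLR deleted (2.37-fold, 1.39 to 4.17). For Kdm4c a circle of 28 and 65 reads in wild type had 8 and 27 in the deletion (2.96-fold), and was above 1 in both genotypes. The most abundant Kdm4c circle had 402 and 532 reads (1.16, 1.02 to 1.32).

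The list closest to VLDLR itself held few calls. Of 32 circles of lipoprotein receptors, the Reelin pathway and lipid handling 2 were called higher (Osbpl6, Scap) and 2 lower (Sorcs1, Abca7), with a median log2 ratio of -0.07. That is 6.25% each way, against 3.9% higher and 4.28% lower of all compared circles. Scap, the sensor that escorts the regulators of sterol synthesis, had 29 and 39 reads in wild type, against 9 and 25 with VLDLR deleted (2.44-fold). Abca7, a lipid transporter, had 19 and 19 against 15 and 6 (2.85-fold lower). The calls of Sorcs1 and Osbpl6 rested on 30 and 40 reads and were lost under more than one alternative. The calls of Abca7 and Scap were also near the limit, with fold intervals of 1.05 to 8.97 and 1.10 to 5.93. Abca7 had the same 15 and 6 deletion reads as the Fbn2 circle described below, whose call was lost with DESeq2 size factors. No circle of Vldlr was listed, so the deleted gene gave no check of the labels. In the Wnt and Norrin list 1 of 22 circles was called higher (4.55%) and 2 lower (9.09%), both of the latter from Apc, the scaffold of beta-catenin destruction. They shared their end at 34279352 on chromosome 18 and had 34 and 13 reads (2.98-fold lower) and 22 and 6 (4.18-fold lower).

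Synapse hosts split evenly, with 6 of 162 circles called higher and 6 lower (3.70% each). Rims2, which organises the presynaptic active zone, held 2 of each. Its circle spanning 53519 bases of the genome had 63 and 106 reads in wild type, against 39 and 90 with VLDLR deleted (2.02-fold, 1.37 to 3.03), above 1 in both genotypes. Circles sharing a start at 39452040 on chromosome 15 had 34 and 16 reads (2.42-fold lower, 1.3 to 4.70) and 30 and 0 (at least 11.4-fold lower). In the cilium and basal body list 3 of 88 were called higher (3.41%) and 4 lower (4.55%), and 44 had a ratio above 1. Its summed ratio was 0.960 (0.934 to 0.987) scaled by total junction reads and 1.02 (0.992 to 1.05) with DESeq2 size factors. Bbs9 alone gave 5062 and 5204 of the 9835 and 10771 reads of this list (0.901, 0.867 to 0.937).

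RNA-binding and splicing hosts had 8 of 72 circles called lower (11.1%) and 3 higher (4.17%), against 4.28% and 3.9% of all compared circles. Their median log2 ratio was -0.02 against -0.01 for all. The lower calls included Msi2, Rbm6, Celf1, Rbfox2, Khdrbs3, Dhx9 and Elavl3, which bind RNA in splicing, translation or decay. Dhx9, an RNA helicase that unwinds the paired repeats flanking some circles, had 39 and 21 against 30 and 14 (2.44-fold lower). The Elavl3 call was lost when a circle with both ends within 10 bases was added, which gave 128 and 93 reads (0.637, 0.482 to 0.839). Higher calls were Cpeb3, Rbm27 and Fmr1, the last an X-linked repressor of translation with 9 and 24 reads.

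Chromatin modifier hosts had 8 of 215 circles called higher (3.72%) and 6 lower (2.79%), and ubiquitin ligase hosts 4 of 130 each way (3.08%). These shares were below the 3.9% higher and 4.28% lower of all compared circles. Smarcad1, a chromatin remodeller, had 75 and 69 reads in wild type, against 20 and 57 with VLDLR deleted (2.50-fold, 1.48 to 4.39), and X-linked Atrx, another remodeller, 39 and 48 against 34 and 12 (3.23-fold lower, 1.63 to 6.85). Motor protein hosts had 3 of 44 circles called higher (6.82%) and 2 lower (4.55%). Their median log2 ratio was 0.24, with summed reads of 1708 and 2151 (1.10, 1.04 to 1.18; wild type 1.03, 0.989 to 1.07). Kif16b, a kinesin of early endosomes, had 77 and 97 reads in wild type, against 0 and 34 with VLDLR deleted. A higher call of Myo9a in this list was lost when a circle 3 bases away was added (101 and 154 reads; 1.34, 1.03 to 1.74).

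In striated muscle hosts 2 of 40 circles were called higher (5%) and 1 lower (2.5%), with summed reads of 1666 and 1986 (1.05, 0.979 to 1.12). The remaining lists, among them Müller glia (4 circles, 0 called), cell cycle (16, 1 higher), mitochondrion (16, 1 lower) and retinal pigment epithelium (7, 1 higher), held few circles or calls. The mitochondrion and oxidative stress hosts summed to 1063 and 1107 reads (0.913, 0.839 to 0.994), with a ratio of 0.970 (0.890 to 1.06) under DESeq2 size factors. The fibroblast and pericyte hosts summed to 57 and 36 reads (0.554, 0.354 to 0.855), with 108 and 106 in wild type (0.857, 0.649 to 1.13). Their 1 compared circle came from Fbn2, a microfibril protein, with 25 and 22 reads in wild type, against 15 and 6 with VLDLR deleted (2.85-fold lower, 1.05 to 8.97). Its call was lost with DESeq2 size factors and with a 99% interval. The 54 widely studied circRNA hosts had 255 compared circles, with 11 called higher (4.31%) and 13 lower (5.10%), and a summed ratio of 0.999 (0.985 to 1.01).

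**Figure D5:**
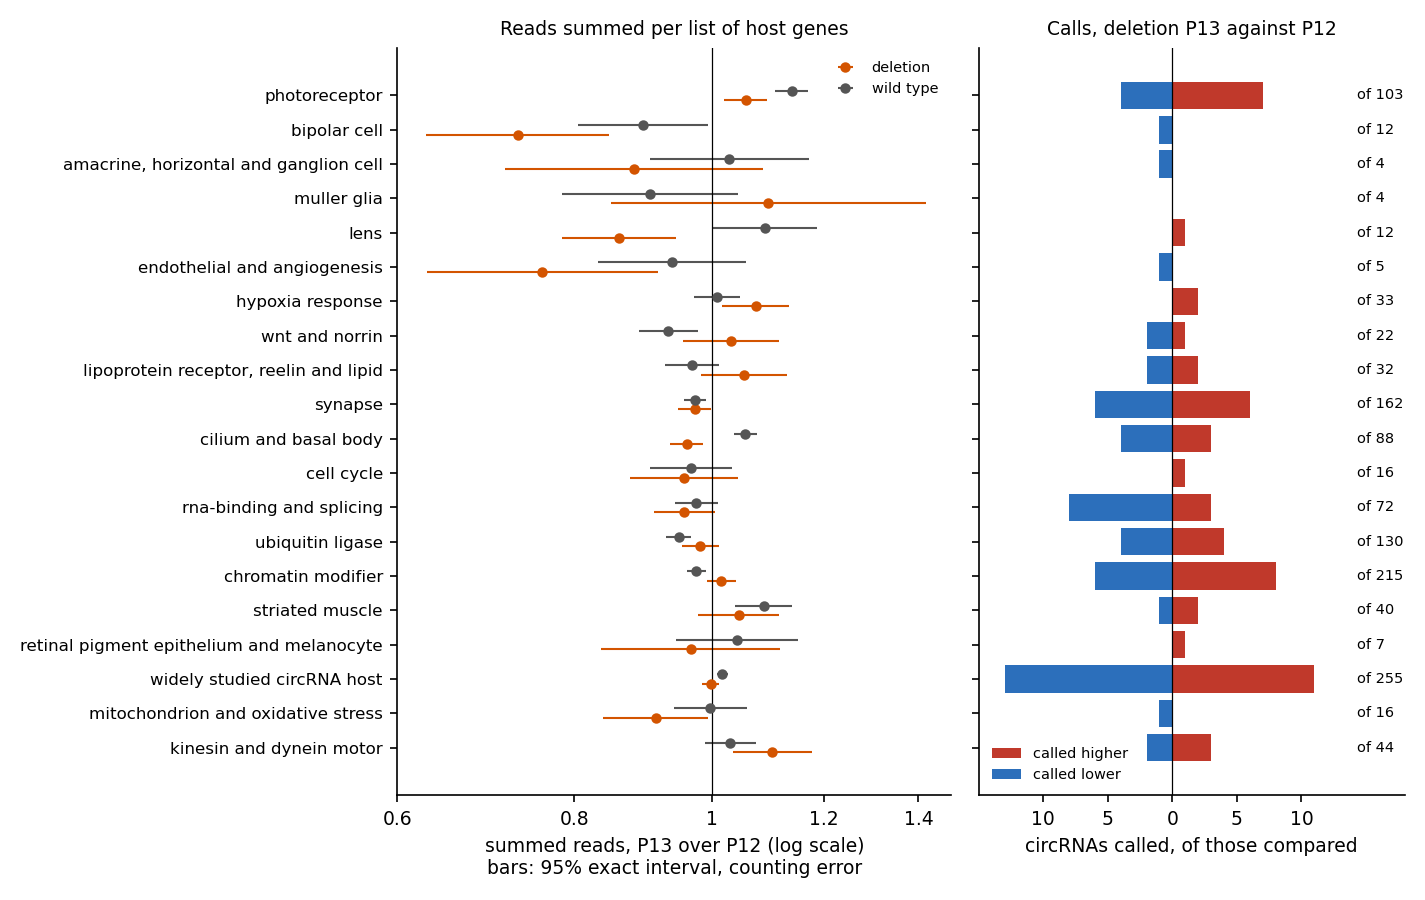
Left, reads summed over the host genes of each list, P13 over P12 (log scale), in the deletion (orange) and wild type (grey), with exact 95% intervals for counting error. Right, circRNAs of each list called higher (red) or lower (blue) in the deletion, of the number compared; lists with at least 4 compared circRNAs are drawn. Bipolar cell (0.729), endothelial (0.760), lens (0.860), mitochondrion (0.913), cilium (0.960) and synapse (0.973) sums lie below 1 in the deletion with intervals that leave out 1, and photoreceptor sums above 1 in both genotypes. With DESeq2 size factors, not drawn, the lens, mitochondrion and cilium intervals take in 1, and the synapse ratio is 1.03 (1.01 to 1.06).

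Of the 149 exonic circles spanning under 500 bases, 17 were called lower (11.4%) and 1 higher (0.671%), against 4.28% and 3.9% of all compared circles. In the classes of exonic circles with longer spans, between 2.78% and 4.71% were called lower. Of the 149, 93 had a ratio below 1, and the median log2 ratio of the set was -0.19. Their reads summed to 8335 and 8052 (0.847, 0.821 to 0.873), and to 13915 and 14376 in wild type (0.902, 0.881 to 0.923). Without the abundant Bbs9 circle the sum in the deletion was 0.874 (0.845 to 0.905). In wild type 16 of 217 such circles were called lower (7.37%) and 5 higher (2.30%). Dact3, a Wnt modulator, had the most reads of the lower calls, with 27 and 21 in wild type, against 49 and 23 with VLDLR deleted (2.43-fold lower, 1.45 to 4.18). Robo2, a guidance receptor, had 35 and 32 against 43 and 21 (2.34-fold lower), Fgfr1, a fibroblast growth factor receptor, 13 and 11 against 17 and 6 (3.23-fold lower), and the exception was Brca2, a DNA repair gene, with 18 and 17 against 11 and 32 (2.55-fold higher, 1.25 to 5.61). Libraries were built from size-selected fragments, and the part of fragment length in these values was not tested.

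Circles classed as intronic in the deposited data need not have both ends in introns, since some share an end with a circle classed as exonic. Of these intronic circles 21 of 216 were called lower (9.72%) and 8 higher (3.70%), against 4.13% and 3.86% of exonic circles. Their median log2 ratio was -0.04 and their summed ratio 0.954 (0.927 to 0.982; wild type 0.961, 0.941 to 0.981). In wild type 34 of 447 intronic circles were called lower (7.61%) and 23 higher (5.15%). Besides Pakap, Rasgrf2, Efnb2 and Atrx, the lower set held Dennd5b with 71 and 84 reads in wild type, against 36 and 12 with VLDLR deleted (3.42-fold lower) and Ubap1l with 124 and 169 against 48 and 26 (2.11-fold lower). Of 220 intergenic circles 11 were called higher (5%) and 5 lower (2.27%).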

How the data were processed

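Each library was rRNA-depleted and cleared of linear RNA before paired-end sequencing, per the labels' protocols. The deposited tables, in the column layout of the CIRI circRNA caller per the file headers, give the count of back-spliced junction reads and of non-junction reads for each circRNA. The deposited junction ratio is the fraction of reads that are back-spliced, 2 × junction reads over 2 × junction reads plus non-junction reads, per the file headers. The deposited SRPBM values are a signal made by the authors, the junction reads divided by 1 constant per library. The submitters' processing notes name BWA and DESeq2 without a role or version. For the genome build, none is given in the sources used here. Coordinates are those of the deposited tables. Host identifiers were matched to RefSeq symbols (GRCm38.p6 table, names alone) for 99.9% of 5822.

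Junction reads of deletion P12 and P13 were joined on circRNA, with 20 reads as minimum and total junction reads as scale (P13 over P12, 1.14). With 1 library per group no test between conditions is possible. Ratios carry exact conditional 95% intervals, which cover counting error alone, since the reads have no molecular identifiers, and an unlisted circRNA was set to 0 reads, with bounds against 3 reads per library. The ratio of ratios used the exact conditional interval of the odds ratio. Calculations used Python 3.11.15, numpy 2.4.6, pandas 2.3.3, SciPy 1.17.1 and matplotlib 3.10.9, and scaling alternatives R 4.3.3 with edgeR 4.0.16 and DESeq2 1.42.0. The interval code was checked on simulated data.

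Named circRNAs were, per direction, the 12 called and listed on both days whose interval limit lay farthest from 1, the 8 with most reads among those unlisted on 1 day, the 10 most abundant, 8 hosts on summed reads, opposite calls sharing a splice position, the called and most abundant members of each of 24 host lists, and the 6 whose day ratio differed most between genotypes. Other named circles were chosen after their values were seen. The comparison, its members and the lists were chosen with earlier results of these data known. Alternatives were TMM, DESeq2 and SRPBM scaling, other read minimums, a 99% interval, unlisted circRNAs set to 1 read or left out and, added after seeing the data, reads close together on the flow cell counted once, chromosomes X and Y left out, and circRNAs with both ends within 10 bases joined. A few named circRNAs are not reported here.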

Additional observations from a re-analysis of the deposited data

Results flagged for a closer look

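For 12 circRNAs the change between days differed most between the deletion and wild type, judged by the limit nearest to 1 of the 95% interval of the ratio of the 2 day ratios. That interval covers counting error alone, the sequencing run goes with the genotype and cannot be told apart from it, and each of the 12 was unlisted in at least 1 library. The interval takes an unlisted library as 0 reads, and its limit nearest to 1 is given for each circle. The fold itself, with unlisted libraries counted as 3 reads, is a lower bound if the circle was absent there, and follows the limit. Reads are given as P12 and P13 of wild type, then P12 and P13 of the deletion.

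Higher day ratios in the deletion, with that limit and the bound, were found for circles of Setbp1 (62, 0, 0 and 22 reads; 175 and at least 152-fold), Sltm (183, 185, 0 and 135; 35.0 and at least 44.7-fold), Emc2 (336, 426, 0 and 157; 32.9 and at least 41.4-fold), Epb41l2, a membrane skeleton protein (51, 0, 12 and 24; 20.7 and at least 34.1-fold), Pak3 (173, 174, 0 and 72; 18.5 and at least 24.0-fold) and Zfp148 (116, 88, 0 and 50; 16.5 and at least 22.1-fold). Setbp1 and Epb41l2 were unlisted in wild type P13, and 5 of the 6, all but Epb41l2, in deletion P12.

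Lower day ratios in the deletion, with that limit and the bound, were found for circles of Fbxw4, an F-box protein (0, 172, 127 and 121; 46.5 and at least 59.9-fold), Rbbp4 (187, 267, 66 and 0; 24.2 and at least 31.3-fold), Tle4 (77, 82, 69 and 0; 18.3 and at least 24.4-fold), Phkb (176, 242, 39 and 0; 13.5 and at least 17.8-fold), Ambra1, an autophagy regulator (0, 51, 31 and 31; 11.6 and at least 16.9-fold) and Tbc1d1, a Rab GTPase-activating protein (0, 33, 13 and 7; 10.4 and at least 20.3-fold). For Fbxw4, Ambra1 and Tbc1d1 the unlisted library was wild type P12, and their circles were listed on both days of the deletion.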

How the results depend on the processing

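With no read minimum, 1204 circRNAs were called higher and 1445 lower, and 282 and 313 hosts. With at least 50 reads the counts were 36 and 43 circRNAs, 21 and 31 hosts, 9 and 6 members of the host lists together, and 61 and 70 circRNAs whose day ratio differed from wild type. A 99% interval gave 107 and 106 circRNAs, 63 and 66 hosts, and 114 and 110 circRNAs differing from wild type. SRPBM scaling gave 385 circRNAs whose day ratio in the deletion is lower than in wild type. The other 44 values of these counts and of the junction ratio stayed within 1.5 times of the reported count or within its spread. TMM scaling gave 225 higher and 204 lower circRNAs, and counting neighbouring flow-cell reads once 161 and 169. Of the counts called in single host lists, 268 values stayed within 1.5 times and 52 did not, 29 of these at the minimum of 50 reads, 14 with neighbouring reads counted once and 5 with DESeq2 size factors. Of the medians of the lists, 146 stayed within their spread and 14 did not, 6 of these with DESeq2 size factors. Of the named ratios, 798 values kept their side of the call and 25 lost it, among them Sorcs1, Ano2, Rpgrip1, Birc6, Fbn2, Axin1, Osbpl6, Fhod3 and Trpm3, and 0 changed sign. The median ratio of all compared circRNAs moved from -0.01 to 0.07 (log2) with DESeq2 size factors. No library could be left out, and no paired analysis was possible because each group holds 1 library. The compared circRNAs have a median of 40 reads over both libraries, which sets the width of their intervals.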

Other observations

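Circles of Rpph1, the RNA subunit of ribonuclease P, were listed at P13 alone in both genotypes, with 4 junction reads in each P13 library for the one circle, and 28 (wild type) and 13 (deletion) for the other. Each of these entries carried between 4303410 and 5356720 non-junction reads. Summed over all listed circRNAs, non-junction reads came to 1766770 in deletion P12 and 12523165 in deletion P13, and to 6102077 and 16844643 in wild type. The P13 sums include both Rpph1 entries, which share a start, so that a read there can be counted for both. The sums are therefore not counts of the reads of a library. The median per listed circRNA was 39 and 42 in the deletion, and 76 and 79 in wild type.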
